A study of Mus musculus with 6 samples.

Results

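Planar cell polarity was followed through 10 genes in the sensory epithelia of the mouse inner ear, namely Vangl1, Vangl2, Celsr1, Celsr2, Celsr3, Prickle1, Prickle2, Ptk7, Fzd6 and Emx2. They were chosen by name, as core planar polarity genes together with the factor that sets the line of polarity reversal, and every probe set annotated to exactly 1 of them was taken. This gave 18 of the 45037 probe sets on the array, 34945 of which name exactly 1 of 18193 genes. The mice were wild type, of the C3H strain, and 2 days old (P2). Vestibular and cochlear sensory epithelia were each read on 3 Affymetrix arrays labelled as replicates, on which 1 probe set reads 1 transcript or a group of them. The vestibular samples held the maculae of both otolith organs together with 2 of the cristae, the lateral and the anterior, and each pool held tissue of 10 to 12 inner ears. Both tissues were taken with the mesenchyme beneath them and with attached neurons, so that an array read several cell types at once, and fewer cells of a type cannot be told apart from less RNA per cell. The labels do not say which pool an array read. The p-values therefore cover only array-to-array spread, part of which can be technical.

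Planar cell polarity is the alignment of cells within the plane of an epithelium. In the core pathway, Frizzled receptors with Dishevelled and, on the opposite face of the cell, Vangl proteins with Prickle collect at cell junctions, where the Celsr cadherins link neighbouring cells. In the inner ear this system aligns the stereociliary bundles of hair cells, and its loss in mice, Vangl2 mutants among them, leaves bundles misoriented. In the utricle and saccule, bundles on either side of a line of reversal point in opposite directions. The homeodomain factor EMX2 is present on only 1 side of that line and reverses the bundles there, while the organ of Corti and the cristae have no such line. Because the vestibular samples pooled both sides of the line with the cristae, the arrays gave 1 Emx2 level for all of these regions.

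The sequences before the transcription starts of Emx2 and Prickle1, the members with lower mRNA in the vestibule, are shown here to give the letters of these regions. RefSeq windows (assembly GRCm38.p6, from the C57BL/6J strain) of the 250 bases before a start were found for 7 members with 11 starts, and not for Vangl1, Celsr1 and Fzd6. Capitals mark GC boxes (GGGCGG) and CCAAT boxes (CCAAT), read on both strands.
Emx2, plus strand, chr19:59458440-59458689: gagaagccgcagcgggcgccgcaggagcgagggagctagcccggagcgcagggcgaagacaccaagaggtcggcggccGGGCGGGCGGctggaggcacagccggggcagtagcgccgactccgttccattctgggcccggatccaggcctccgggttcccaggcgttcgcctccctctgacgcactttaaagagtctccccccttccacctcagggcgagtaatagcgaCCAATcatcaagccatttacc
Prickle1, minus strand, the outer of the 2 windows found, chr15:93595903-93596152: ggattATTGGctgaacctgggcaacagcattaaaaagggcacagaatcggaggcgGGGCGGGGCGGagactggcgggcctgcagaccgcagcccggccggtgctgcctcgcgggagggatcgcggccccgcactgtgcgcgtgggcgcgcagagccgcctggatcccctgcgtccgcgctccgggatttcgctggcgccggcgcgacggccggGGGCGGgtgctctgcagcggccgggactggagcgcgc
The Emx2 window held 2 overlapping GC boxes and 1 CCAAT box, at 67.2% G and C, and the Prickle1 window held 3 GC boxes and 1 CCAAT box, at 74.0%. A GC box lay in 9 of the 11 member windows, against 32.7% of all 32851 windows. Those 9 windows belong to 6 genes, some of them with several windows. A CCAAT box lay in 3 of 11, against 33.8%. The member windows held 46.4% to 75.2% G and C, against a median of 52.4% over all windows. Neither the homeodomain core TAATTA (4.84% of all windows) nor the TATA box TATAAA (12.4%) was found in any of the 11. The arrays did not measure these regions, and the matches describe the letters alone.

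Of the 18 member probe sets, 15 had a mean log2 value over the 6 arrays of at least 4.7 and were tested among 29554 probe sets. Each of the 10 genes kept at least 1. The other 3, a pair for Prickle1 and 1 for Fzd6, had means of 4.03, 4.02 and 4.42. A probe set was called when limma gave an adjusted p below 0.1 and the tissues differed 1.3-fold or more. On this rule the vestibule was higher at 2 member probe sets, both of Fzd6, and the cochlea at 2, 1 each of Prickle1 and Emx2. Of all probe sets tested, 12.0% were called with the vestibule higher and 7.38% with the cochlea higher, so that the vestibule took 62.0% of the calls (55.3% after median centring and 53.4% after a further quantile normalization). The arrays of the tissues did not overlap at the same 4 of the 15 member probe sets, 2 in each direction. Of all probe sets tested, 16.0% lay apart with the vestibule higher and 11.5% with the cochlea higher. The median absolute log2 difference was 0.20 over the 15 member probe sets and 0.20 over all probe sets tested.

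**Figure D1:**
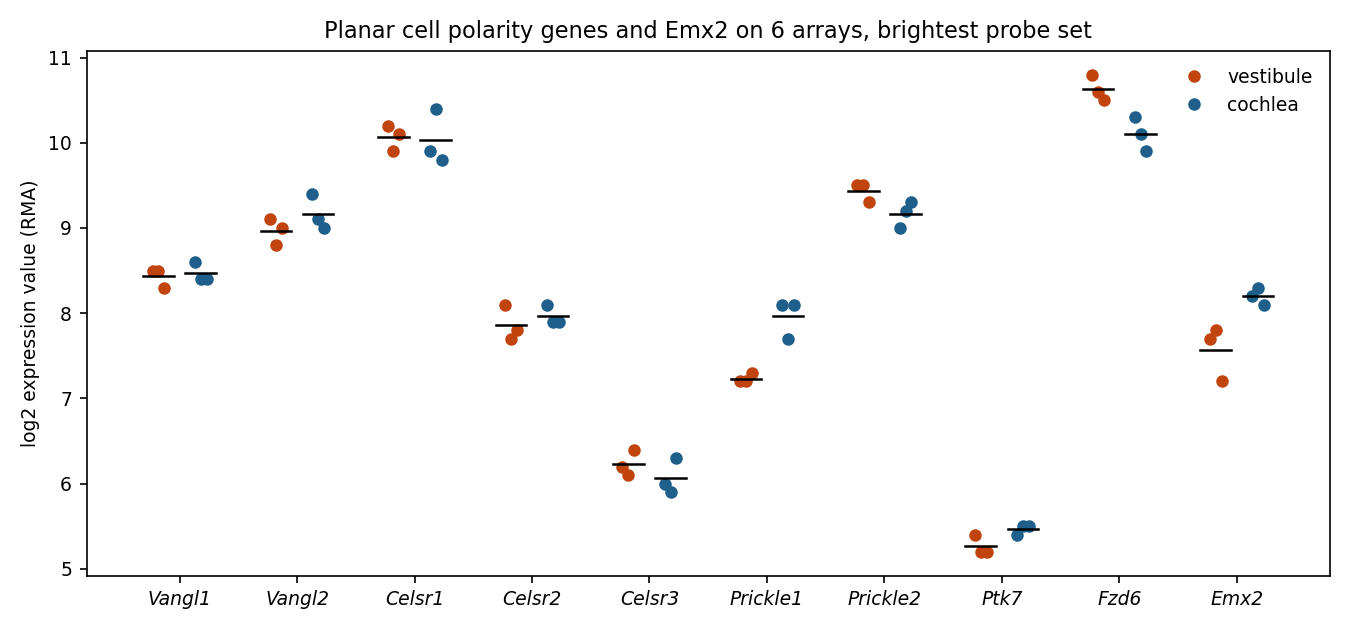
Log2 expression value (RMA) of each of the 10 genes at its brightest probe set, 1 point for each of the 3 vestibular and 3 cochlear arrays, with bars at the means. The points of the tissues lie apart for Prickle1 and Emx2, which are lower in the vestibule, and for Fzd6, which is higher there. Heights of different genes come from different probes and cannot be set against each other.

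Emx2 was lower in the vestibule. It was read by 1 probe set (1456258_at), with the gene on chromosome 19 at 59458690 to 59465357 (GRCm38.p6). Its log2 values were 7.7, 7.8 and 7.2 on the vestibular arrays, against 8.2, 8.3 and 8.1 on the cochlear arrays. The highest vestibular array thus lay below the lowest cochlear array, and vestibule replicate 3 was the lowest of the 6. The means were 7.57 ± 0.32 in the vestibule and 8.20 ± 0.10 in the cochlea (SD, n = 3 each), a log2 difference of -0.63 (limma adjusted p = 0.0330, 95% confidence interval -1.01 to -0.25, standard error 0.17). This corresponds to a 1.55-fold higher value in the cochlea. The difference was -0.45 without vestibule replicate 3 (limma adjusted p = 0.0837), and the call was lost without cochlea replicate 1 (-0.63, limma adjusted p = 0.119) or cochlea replicate 2 (-0.58, limma adjusted p = 0.108).

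The opposite-strand transcript Emx2os, which runs antisense beside Emx2 and is named here after its values were seen, read 4.7, 4.6 and 4.5 in the vestibule and 4.8, 4.8 and 4.7 in the cochlea. Its mean was below the minimum and it was not tested. The 5 genes whose centred log2 values over the 6 arrays lay nearest to those of Emx2, by Euclidean distance among 14162 genes, were Dubr (0.115), Cyp1b1 (0.183) and, each at 0.261, Alpk2, Pdgfb and Prmt8. All 5 were called higher in the cochlea, with log2 differences of -0.70 to -0.53. They were chosen by these same values, so a tissue difference like that of Emx2 follows from the choice.

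Prickle1, which encodes a cytoplasmic LIM domain protein that acts with the Vangl proteins, had the largest difference among the members. Its brightest probe set (1452249_at) read 7.2, 7.2 and 7.3 in the vestibule, against 8.1, 7.7 and 8.1 in the cochlea. The vestibular arrays lay within 0.1 of each other and below every cochlear array. The means were 7.23 ± 0.06 in the vestibule and 7.97 ± 0.23 in the cochlea (SD, n = 3 each), a log2 difference of -0.73 (limma adjusted p = 0.00669, 95% confidence interval -1.05 to -0.42, standard error 0.14), or 1.66-fold higher in the cochlea. It was called under each of the 15 alternatives run, with limma adjusted p-values of 0.00143 to 0.0522. The other Prickle1 probe sets (1442172_at and 1444759_at) stood between 3.9 and 4.1 on all 6 arrays, below the minimum. The genes nearest to Prickle1 in centred values were Draxin (distance 0.115), A530020G20Rik and St6galnac5 (0.122 each) and Mblac2 and Ttc27 (0.168 each). All were called higher in the cochlea, which again follows from how they were chosen.

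Prickle2, the paralogue of Prickle1, did not pass the test. It read 9.5, 9.5 and 9.3 in the vestibule, against 9.0, 9.2 and 9.3 in the cochlea, so that the arrays touched at 9.3. The log2 difference was 0.27 (limma adjusted p = 0.210, 95% confidence interval -0.02 to 0.55, standard error 0.13). The Prickle1 minus Prickle2 log ratio within an array was -2.3 to -2.0 in the vestibule and -1.5 to -0.9 in the cochlea. These ranges did not overlap. The ratio differed by -1.0 between the tissues (exact permutation test, two-sided p = 0.1, which is the smallest that 3 arrays against 3 can give, and 0.5 after Benjamini-Hochberg adjustment over 5 pairs of paralogues).

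Fzd6, which encodes a Frizzled receptor, was higher in the vestibule at both of its tested probe sets. The brightest (1417301_at) read 10.8, 10.6 and 10.5 in the vestibule, against 10.3, 10.1 and 9.9 in the cochlea. Each vestibular array was above each cochlear array. The means were 10.63 ± 0.15 in the vestibule and 10.10 ± 0.20 in the cochlea (SD, n = 3 each), a log2 difference of 0.53 (limma adjusted p = 0.0339, 95% confidence interval 0.21 to 0.85, standard error 0.14) or a fold of 1.45. The dimmer one (1448662_at) read 5.7, 6.0 and 5.9 in the vestibule, against 5.6, 5.3 and 5.3 in the cochlea, with a log2 difference of 0.47 (limma adjusted p = 0.0488). Both probe sets therefore lay on the same side, by similar amounts. The third (1458904_at) was below the minimum, at 4.4, 4.4 and 4.3 in the vestibule and 4.5, 4.2 and 4.7 in the cochlea. The call of the brightest was lost without vestibule replicate 1 (0.45, limma adjusted p = 0.154) or 2 (0.55, limma adjusted p = 0.110), and that of the dimmer one without vestibule replicate 2 or 3 or cochlea replicate 2 or 3, or with array weights (0.37, below the minimum fold). Nearest to Fzd6 in centred values were Nipal3 and Pdlim5 (0.0913 each) and Abhd3, Cdc42ep1 and Col1a2 (0.115 each, as was 1 further gene). The 5 named were called higher in the vestibule, which also follows from the choice by nearness.

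Fzd3, the receptor that acts redundantly with Fzd6 in orienting mouse hair bundles, is not a member and is named after its values were seen. Its brightest probe set read 10.1, 10.1 and 10.2 in the vestibule, against 10.2, 10.3 and 10.3 in the cochlea, a log2 difference of -0.13 (limma adjusted p = 0.461). Its 4 tested probe sets disagreed, with differences of -0.13 to 0.47, and 1 of them was called higher in the vestibule.

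Vangl1 and Vangl2, the transmembrane partners of Prickle, did not pass the test at any of their 5 probe sets. Vangl2 is the member mutated in Looptail mice. At its brightest probe set (1436118_at) it read 9.1, 8.8 and 9.0 in the vestibule, against 9.4, 9.1 and 9.0 in the cochlea, and the arrays overlapped. The log2 difference was -0.20 (limma adjusted p = 0.410, 95% confidence interval -0.53 to 0.13). The other Vangl2 probe sets stood at -0.10 (1455592_at) and -0.27 (1419218_at). Vangl1 (1427234_at) read 8.5, 8.5 and 8.3 in the vestibule, against 8.6, 8.4 and 8.4 in the cochlea. Its log2 difference was -0.03. The 95% confidence interval (-0.31 to 0.24) allows a fold of at most 1.24 in either direction, the smallest such fold among the member probe sets. The dimmer Vangl1 probe set (1441097_at) stood at -0.13, and its interval allows a fold of at most 1.35. The Vangl1 minus Vangl2 log ratio differed by 0.17 between the tissues (exact permutation test, two-sided p = 0.5).

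The Celsr genes encode the atypical cadherins that carry the polarity signal across junctions. None of their 4 probe sets passed the test. Celsr1 read 10.2, 9.9 and 10.1 in the vestibule, against 9.9, 10.4 and 9.8 in the cochlea. Cochlea replicate 2 was the highest of the 6 arrays and the other cochlear arrays were at or below the vestibular ones. The log2 difference of Celsr1 was 0.03 (limma adjusted p = 0.906, 95% confidence interval -0.36 to 0.43). Celsr2 read 8.1, 7.7 and 7.8 in the vestibule, against 8.1, 7.9 and 7.9 in the cochlea, a log2 difference of -0.10 (95% confidence interval -0.41 to 0.21), and its second probe set (1422073_a_at) stood at -0.13. Celsr3, known for its part in axon guidance, read 6.2, 6.1 and 6.4 in the vestibule, against 6.0, 5.9 and 6.3 in the cochlea, a log2 difference of 0.17 (95% confidence interval -0.16 to 0.49). The within-array log ratios of the 3 Celsr pairs differed between the tissues by 0.13 (Celsr1 minus Celsr2), -0.13 (Celsr1 minus Celsr3) and -0.27 (Celsr2 minus Celsr3), with two-sided exact permutation p-values of 0.7, 0.8 and 0.3.

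Ptk7, which encodes a receptor-like protein needed for bundle orientation in mice, read 5.4, 5.2 and 5.2 in the vestibule, against 5.4, 5.5 and 5.5 in the cochlea. The arrays touched at 5.4, and the log2 difference was -0.20 (limma adjusted p = 0.292, 95% confidence interval -0.46 to 0.06). For the 11 member probe sets that were not called, the 95% confidence intervals allow folds of at most 1.24 to 1.48 in either direction.

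**Figure D2:**
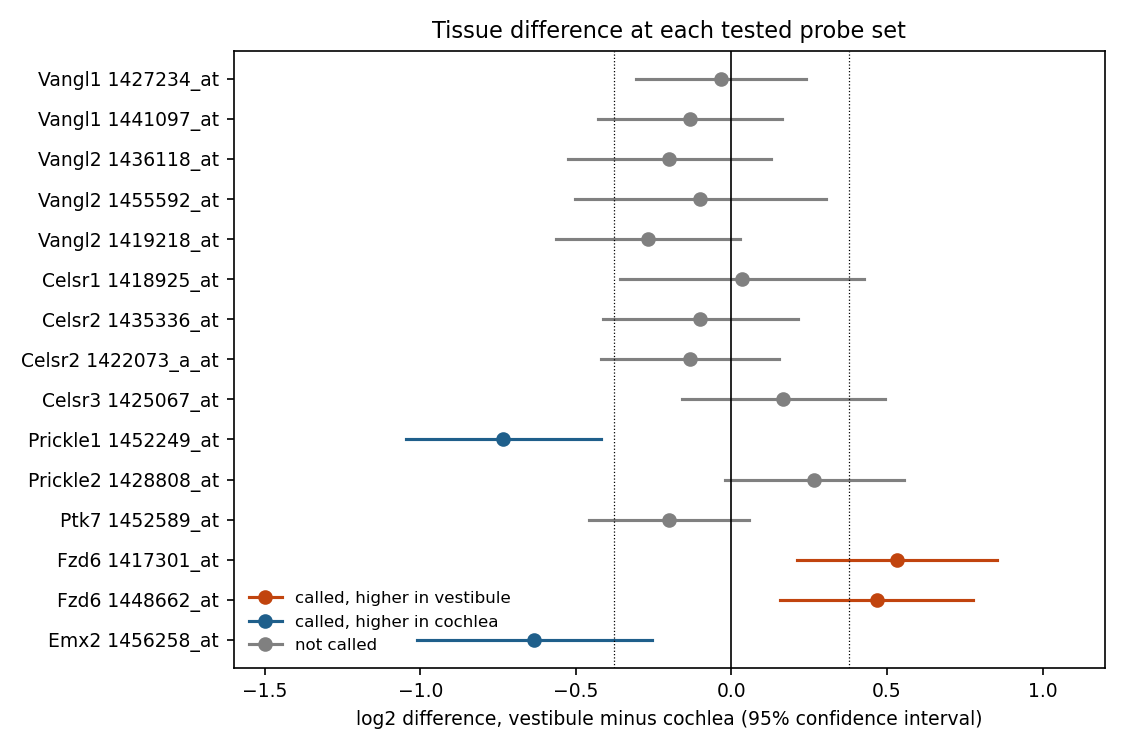
Log2 difference, vestibule minus cochlea, at each of the 15 tested member probe sets, with 95% confidence intervals from limma and dotted lines at a fold of 1.3 either way. Prickle1 and Emx2 lie to the left (higher in the cochlea) and both Fzd6 probe sets to the right, while the intervals of the remaining 11 cross 0.

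Other genes of the planar polarity pathway were taken from a list of 36, of which 33 were measured, each at its brightest probe set. The vestibule was called higher for 6 and the cochlea for 2, and 25 did not pass, with a median log2 difference of 0.07. Of all 14162 genes tested in this way, 15.1% were called with the vestibule higher and 7.97% with the cochlea higher, with a median of 0.03. Among ligands, Wnt11, which signals through the noncanonical branch, read 6.5, 6.6 and 6.3 in the vestibule, against 5.2, 5.6 and 4.9 in the cochlea, a log2 difference of 1.23 (limma adjusted p = 0.00178, standard error 0.18). Every vestibular array lay above every cochlear one. Wnt7a was higher in the cochlea at -0.53 (limma adjusted p = 0.0574), a call lost on leaving out any array other than cochlea replicate 3. The other of its 2 tested probe sets stood at -0.20 and was not called.

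Among receptors, Ror1, a kinase-like receptor of Wnt5a, read 9.4, 9.5 and 9.4 in the vestibule, against 7.7, 7.6 and 7.1 in the cochlea. Its log2 difference of 1.97 (limma adjusted p = 7.54e-05, standard error 0.16) was the largest of the list, but its second tested probe set stood at 0.03. Its relative Ror2 was higher in the vestibule at 0.50 (limma adjusted p = 0.0602) at both of its probe sets, and the call at the brightest was lost on leaving out any array other than cochlea replicate 3. Ryk, another Wnt receptor, stood at 0.47 without passing, and its 3 tested probe sets disagreed in sign (-0.23 to 0.47). Fzd2 did not pass at its brightest probe set (-0.40), while 1 of its 3 tested probe sets (-0.50 to -0.40) was called higher in the cochlea.

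Among intracellular genes, Ankrd6, the mouse relative of the fly polarity gene diego, read 10.4, 10.2 and 10.4 in the vestibule, against 9.2, 9.0 and 8.8 in the cochlea. The log2 difference was 1.33 (limma adjusted p = 2.36e-04, standard error 0.14), and 2 of its 3 tested probe sets were called in that direction. Sestd1, whose product binds Dact1 in mice, was higher in the vestibule at 0.60 (limma adjusted p = 0.00674), as was Wdpcp, a planar polarity effector needed for cilia, at 0.50 (limma adjusted p = 0.0216). Daam1, the formin that links Dishevelled to actin, was lower in the vestibule, at 9.9, 9.6 and 9.6 against 10.8, 10.6 and 10.4 in the cochlea. Its log2 difference was -0.90 (limma adjusted p = 0.00296, standard error 0.14), and all 3 of its tested probe sets were called higher in the cochlea. The heparan sulphate proteoglycan gene Gpc4 stood at 0.37, a fold of 1.29 and just under the minimum, but the other of its 2 tested probe sets was called higher in the vestibule at 0.43. The Dishevelled antagonist gene Dact1 stood at -0.40 and narrowly failed to pass (limma adjusted p = 0.102). It was called higher in the cochlea with a minimum of 5.5, a further quantile normalization, an intensity trend or array weights, or without cochlea replicate 3.

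Of 19 genes of hair bundle orientation, 18 were measured and 16 tested. The vestibule was called higher for 2 and the cochlea for 1, and 13 did not pass, with a median log2 difference of 0.18. Over all 14162 genes at their brightest probe sets, 15.1% were called with the vestibule higher and 7.97% with the cochlea higher, with a median of 0.03. Gnai1, an inhibitory G protein subunit at the bare zone of the hair cell apex, read 10.5, 10.2 and 10.0 in the vestibule, against 9.4, 9.2 and 9.3 in the cochlea. Its arrays did not overlap, and the log2 difference was 0.93 (limma adjusted p = 0.00259, standard error 0.15), with 2 of 3 tested probe sets called. Ccdc88c, which encodes the Dishevelled binding protein DAPLE, was called at 0.47 (limma adjusted p = 0.0965), although its arrays touched at 8.3. That call was lost on leaving out any array other than cochlea replicate 2, and 1 of 4 tested probe sets carried it. Pard6b, a component of the PAR polarity complex, was higher in the cochlea at -0.40 (limma adjusted p = 0.0473). The other of its 2 tested probe sets stood at -0.37 and was not called. The call at the brightest was lost without cochlea replicate 2 or vestibule replicate 1 or 3, or with array weights (-0.36, below the minimum fold).

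Among the uncalled genes of this list, the cilium genes Ift88 and Bbs4 stood at 0.30 each, and the atypical protein kinase C gene Prkci at 0.27. The 3 tested probe sets of Bbs4 stood at 0.30 to 0.60, and 2 of them, not the brightest, were called higher in the vestibule. Gpsm2, the partner of the inhibitory G proteins, and Gnai2, both named after their values were seen, stood at 0.23 each. Stk32a, a kinase gene that Emx2 represses in mouse vestibular hair cells, read 4.4, 4.3 and 4.7 in the vestibule, against 4.1, 4.2 and 4.0 in the cochlea. The vestibular arrays were above the cochlear ones, but the mean was below the minimum and no test was made.

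**Figure D3:**
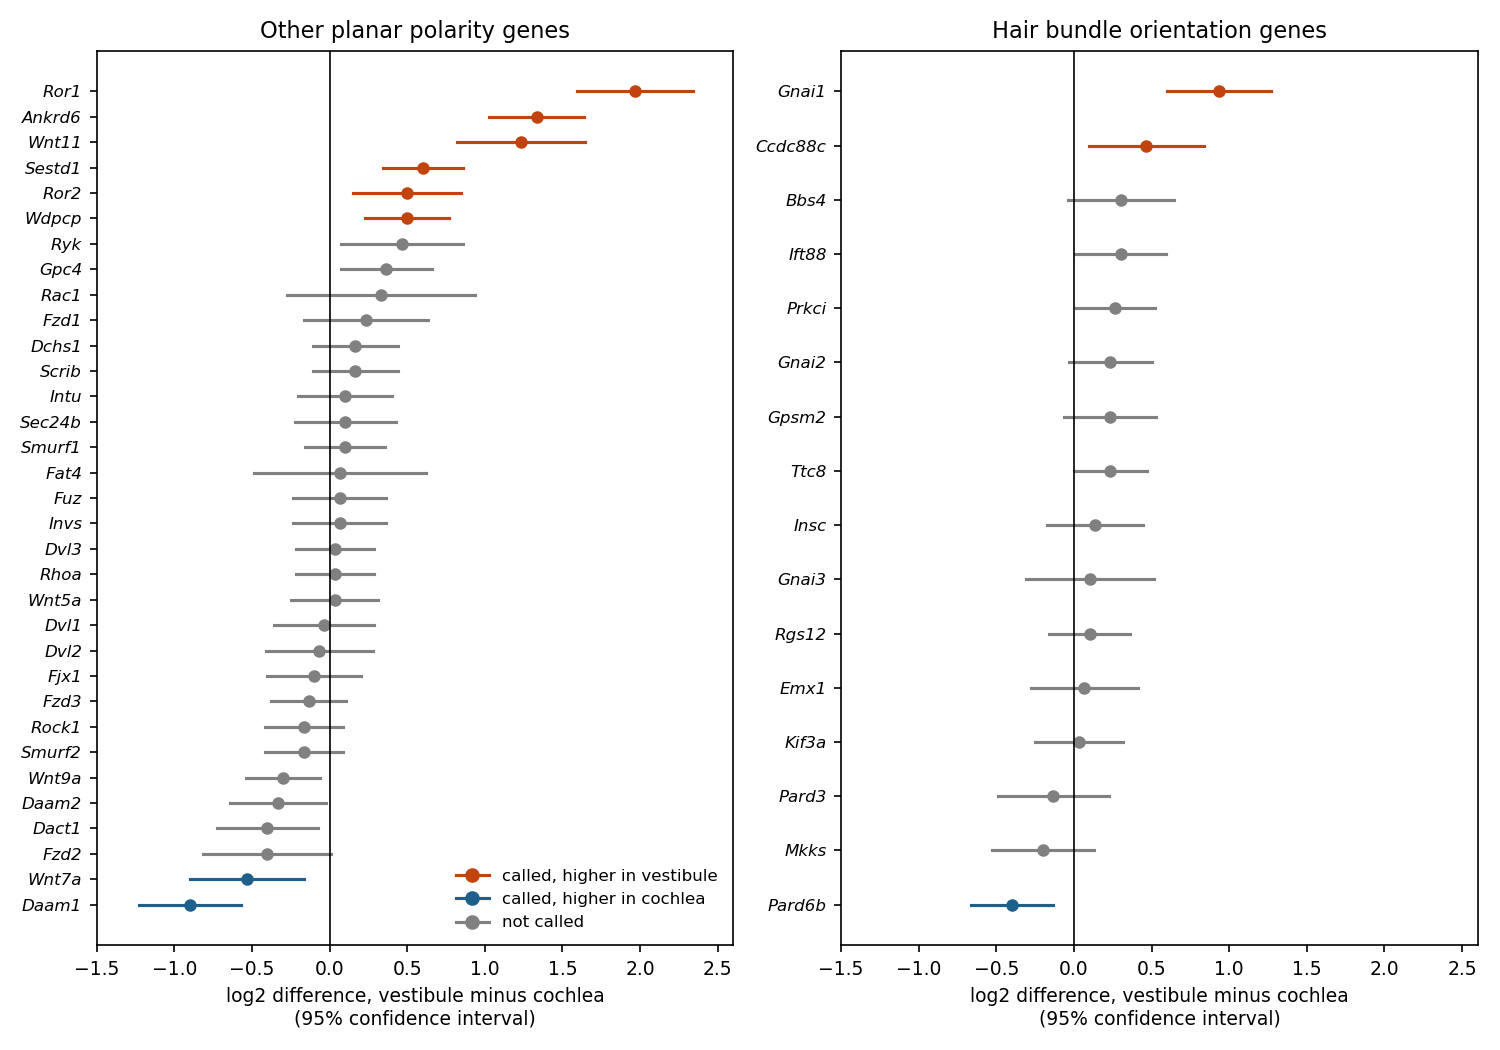
Log2 difference, vestibule minus cochlea, with 95% confidence intervals from limma, for the 33 tested genes of the planar polarity list and the 16 of the hair bundle orientation list, each at its brightest probe set. Ror1 lies farthest to the right at 1.97 and Daam1 farthest to the left at -0.90.

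Markers of the cell types in the dissections moved with the tissue as well. For comparison, the shares called over all 14162 genes were 15.1% with the vestibule higher and 7.97% with the cochlea higher. Of 14 hair cell genes, 10 were called with the vestibule higher and 1 with the cochlea higher, with mean log2 levels of 8.59 to 8.78 on the vestibular arrays and 7.57 to 7.71 on the cochlear arrays. Of 11 neuron genes, 10 were called with the cochlea higher, at mean levels of 6.95 to 7.18 in the vestibule and 8.22 to 8.64 in the cochlea. Supporting cell genes were split, with 2 of 10 called for the vestibule and 3 for the cochlea, at mean levels of 8.29 to 8.36 in the vestibule and 8.91 to 9.10 in the cochlea. Of 6 epithelial genes, 3 were called with the vestibule higher and 1 with the cochlea higher, at mean levels of 10.63 to 10.68 in the vestibule and 10.18 to 10.45 in the cochlea. Calls with the vestibule higher were made for 6 of 11 mesenchymal, 4 of 6 tested endothelial and 2 of 5 tested Schwann cell genes. In each of these lists 1 gene was called the other way. Vestibule calls were also made for 7 of 8 macrophage genes, 5 of 5 melanocyte genes and the only red blood cell gene tested. The part of these cell types in the differences of Emx2, Prickle1, Fzd6, Ror1 and the other called genes was not tested.

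**Figure D4:**
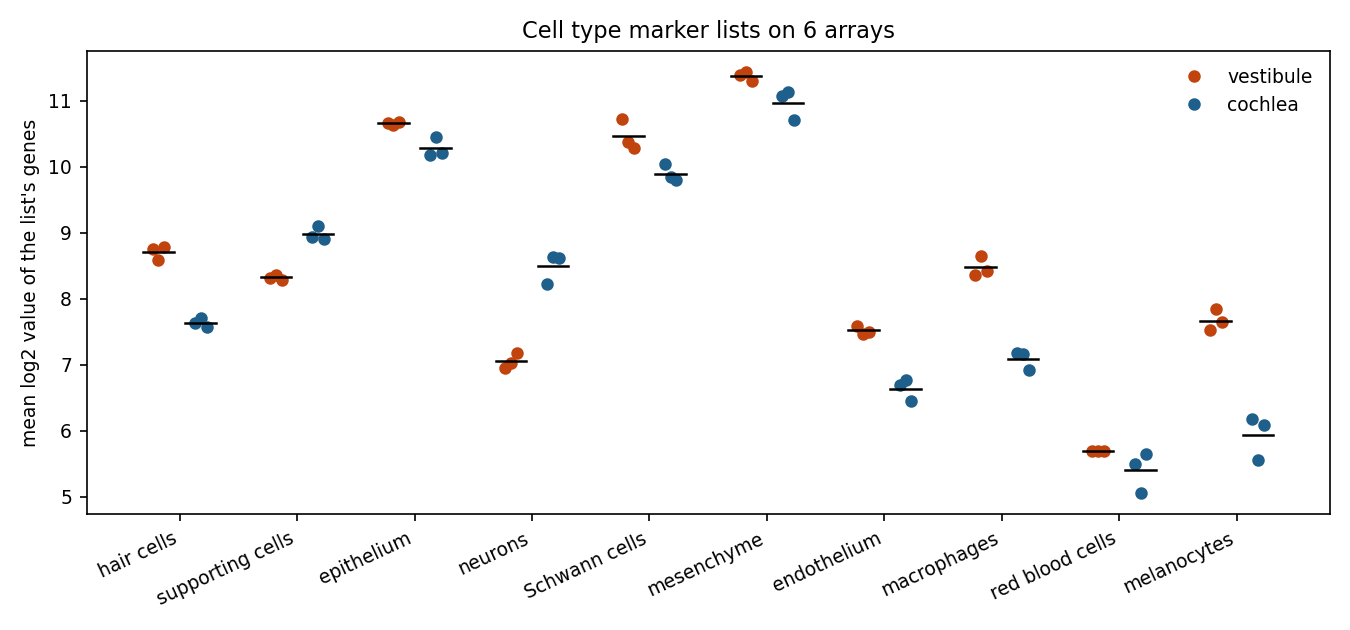
Mean log2 value of the genes of 10 cell type marker lists, each gene at its brightest probe set, 1 point for each of the 3 vestibular and 3 cochlear arrays, with bars at the means. Hair cell genes lie higher on the vestibular arrays (8.59 to 8.78 against 7.57 to 7.71) and neuron genes lie lower there (6.95 to 7.18 against 8.22 to 8.64).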

How the data were processed

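Total RNA was amplified with a 2-cycle kit and hybridised to Affymetrix mouse genome arrays by the authors. The deposited values are log2 expression values that the authors computed by RMA with quantile normalization, rounded to 1 decimal (2.8 to 15, median 5.6 to 5.7 on each array). The sources used here name no version of RMA or MAS5. The values were used without further scaling. Arrays correlated at 0.980 to 0.993 within a tissue and 0.945 to 0.961 across tissues, and no array was a copy of another (12.0% to 21.4% of values the same in a pair).

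Present calls could not be repeated from these values, so probe sets other than the 64 controls were kept at a mean log2 value of at least 4.7. Probe sets named 1 gene for 34945, several for 932 and none for 9160. The difference of vestibule minus cochlea was tested on both sides over 29554 probe sets by lmFit and eBayes (limma 3.58.1, R 4.3.3) with Benjamini-Hochberg adjustment. Calls used the thresholds of the study, an adjusted p below 0.1 with a fold of 1.3 or more. A gene is read by its brightest probe set. The code of the fit was also run on simulated data with planted differences and independent noise for each probe set. That run checks the code and does not bear on the calls made here.

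The members and the gene lists, written from textbook knowledge, were chosen with earlier results of these data known. The text names every member and, from the pathway and orientation lists, the called genes and up to 4 further ones with the largest differences. For Emx2 and called members it names the 5 nearest genes, and others are said to be named after their values were seen. Some genes of these lists were not analysed here. Alternatives were no filter and a minimum of 5.5, median centring, a further quantile normalization, an intensity trend, weights for arrays, a block on replicate number, leaving out single arrays, a threshold of 0.05, no minimum fold and the mean over a gene's probe sets. Figures were drawn with matplotlib 3.10.9. With 3 arrays per tissue, that number sets the precision.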

Additional observations from a re-analysis of the deposited data

How the results depend on the processing

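Prickle1 kept its call under all 15 alternatives, and Emx2 and Fzd6 under 13 of 15, with the exceptions among arrays left out. For Prickle1 and Emx2, with 1 tested probe set each, the mean over probe sets could not change the difference. When 1 array was left out, the log2 difference of Emx2 ranged from -0.75 to -0.45 and that of Fzd6 from 0.43 to 0.63, the member probe sets called higher in the vestibule numbered 0 to 2 (1 with array weights) and those higher in the cochlea 1 to 2. Uncalled values near 0 turned sign. Celsr1 ranged from -0.083 to 0.217 (-0.061 after a further quantile normalization), Vangl1 from -0.067 to 0.033, Vangl2 at 1455592_at from -0.267 to 0.033, and the Celsr1 minus Celsr3 ratio from -0.37 to 0.13. All probe sets called numbered 2355 to 3884 for the vestibule and 1414 to 2796 for the cochlea, lowest without vestibule replicate 1.

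Planar polarity list genes higher in the cochlea numbered 1 to 3 with 1 array left out, 4 after a further quantile normalization and 1 at an adjusted p under 0.05. Orientation list genes higher in the vestibule numbered 1 to 2 with 1 array left out and 1 under no filter, median centring, the further quantile normalization or an adjusted p under 0.05, and those higher in the cochlea 0 to 1, and 0 with array weights. The deviations of same-numbered vestibular and cochlear arrays correlated at 0.22, 0.15 and -4.0e-04, and those of differently numbered arrays at -0.22 to 0.03. These values do not settle whether the numbers pair the arrays. The main fit left the arrays unpaired, and a block on replicate number was an alternative. With the replicate block, all probe sets called numbered 2883 for the vestibule and 1795 for the cochlea, 1 member probe set was called higher in the vestibule, and 1 orientation list gene. The calls of Fzd6 at 1448662_at (limma adjusted p = 0.166), Ror2 (0.166) and Ccdc88c (0.221) were lost with that block. Dact1 was called higher in the cochlea with it (limma adjusted p = 0.0679). After median centring, all probe sets called numbered 3151 for the vestibule and 2547 for the cochlea, and after a further quantile normalization 3248 for the vestibule and 2835 for the cochlea. Values carry 1 decimal and come from 3 arrays per tissue, which limits what small differences can show.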
